A study of Rattus norvegicus with 12 samples.

Results

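The endothelial genes described here are Plvap, Cd93, Clec14a, Emcn, Sox17, Sox7, Aqp1, Arhgef15, Fgd5 and Prnd, 10 of the 14217 genes that the array named. They were chosen because their signal was lower than control at 1 or more of the weeks studied after treatment with NMBA (N-nitrosomethylbenzylamine). NMBA is a nitrosamine carcinogen used to induce esophageal squamous tumors in rats. Their levels against control are therefore a description: no p-value is given for them, and the numbers called by the fit are printed only beside the share of all probe sets called. The choice was not exhaustive, since other endothelial genes described further on were also lower. Just inside the call threshold (an adjusted p under 0.05) lay Arhgef15, whose largest difference from control was -0.48 on the log2 scale. Just outside it lay the apelin receptor gene Aplnr, a case found by its values, at up to -0.52. The platform annotation ties 14 of the 31042 probe sets to these symbols, and the probe set with the highest mean stood for a gene that had several.

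RNA of rat esophageal tissue was measured on 12 Affymetrix arrays in 4 groups of 3: a normal control, and rats sampled 6, 15 or 29 weeks after NMBA, times labelled as early, middle and late in tumor development. Injections of 0.2 ml were given under the skin 3 times per week for 5 weeks and held either NMBA, at 0.3 mg per kg, or the dimethyl sulfoxide and water it was dissolved in. The labels state no strain, sex or age of the rats and no week for the controls. Nothing says that the arrays of a group came from different rats, so a p-value measures the spread between these samples, which may be technical. The protocol stripped the submucosa and muscle from the esophagus, yet the skeletal muscle score, the mean log2 signal of 13 muscle genes, lay between 11.83 and 13.77 on the 12 arrays. Endothelial transcripts were measured in the same tissue, with the pan-endothelial marker Pecam1 between 8.41 and 9.15.

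Endothelial cells line blood vessels and control what passes between blood and tissue. Their identity rests on transcription factors of the ETS and SOXF families, and capillaries differ from larger vessels in the diaphragms, water channels and mucins that they carry. Surface lectins of the endothelium bind multimerin 2 in the vessel matrix.

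Against control, all 10 genes were lower at week 6 and at week 29, and 8 of them at week 15. Plvap and Sox7 were the exceptions. Their week 15 arrays overlapped the controls, and their week 15 signal was higher than at week 6 and week 29 beyond the spread between arrays. Among the other 8, no difference between week 15 and week 6 passed the test. The week 29 mean was the lowest of the 4 groups for 8 genes, and the week 15 mean for Arhgef15 and Fgd5.

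Promoters are shown for each of the 10 genes that had a promoter window lying wholly before the annotated gene. They are Plvap, which was low, then at the control level, then low again, and Clec14a, Aqp1 and Prnd, which were lower at every week. Each line gives the 250 bases before the transcription start, 5′ to 3′ on the gene's strand, from RefSeq on the GRCr8 build. Capitals mark AGGAAG or its complement CTTCCT, a longer form of the GGAA core that ETS factors bind.
Plvap, minus strand, chr16:18231280-18231529: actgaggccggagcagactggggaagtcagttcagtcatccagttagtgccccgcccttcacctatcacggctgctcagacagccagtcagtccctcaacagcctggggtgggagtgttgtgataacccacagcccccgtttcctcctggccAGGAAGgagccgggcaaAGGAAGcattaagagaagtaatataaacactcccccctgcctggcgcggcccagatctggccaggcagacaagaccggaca
Clec14a, minus strand, chr6:81619557-81619806: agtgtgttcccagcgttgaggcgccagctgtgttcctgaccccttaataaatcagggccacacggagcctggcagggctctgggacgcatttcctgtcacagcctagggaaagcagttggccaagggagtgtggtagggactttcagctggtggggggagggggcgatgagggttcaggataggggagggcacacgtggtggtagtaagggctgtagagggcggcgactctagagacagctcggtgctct
Aqp1, plus strand, chr4:85812534-85812783: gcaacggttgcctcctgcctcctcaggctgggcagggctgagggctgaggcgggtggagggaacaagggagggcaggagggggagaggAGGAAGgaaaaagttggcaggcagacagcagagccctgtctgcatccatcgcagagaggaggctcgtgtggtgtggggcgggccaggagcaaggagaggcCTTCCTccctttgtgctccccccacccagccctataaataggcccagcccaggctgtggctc
Prnd, plus strand, chr3:139666133-139666382: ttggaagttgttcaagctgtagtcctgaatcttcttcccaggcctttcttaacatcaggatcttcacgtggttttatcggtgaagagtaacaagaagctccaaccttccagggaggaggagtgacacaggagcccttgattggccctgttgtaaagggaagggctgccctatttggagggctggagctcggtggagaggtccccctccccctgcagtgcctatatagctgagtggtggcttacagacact

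The promoter table held 6 of the 10 genes, these 4 together with Emcn and Fgd5, whose windows overlap the annotated gene and are counted but not shown. Cd93, Sox17, Sox7 and Arhgef15 were not among them. On either strand, AGGAAG was present in 4 of the 6 windows (Plvap, Emcn, Aqp1 and Fgd5) and in 29.5% of all 33469 promoter windows of the same 250 bases. Among the 4 windows shown, 2 held it, Plvap and Aqp1, and 0 held ACAAT. The shorter core GGAA, which AGGAAG contains, was in 6 of 6 and in 93.2% of all windows. ACAAT, a core that SOX factors bind, was in 1 of 6 (Emcn) and in 30% of all. The sequence AGATAA, bound by factors named for their GATA motif, was in 0 of 6 and in 10.3% of all. These matches describe the letters of the windows only.

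Plvap encodes the protein of the diaphragms that span endothelial fenestrae and caveolae. Its log2 signal was 10.66, 10.43 and 10.42 in the 3 controls, 9.71, 9.77 and 9.90 at week 6, 10.65, 10.51 and 10.25 at week 15 and 9.35, 9.44 and 9.44 at week 29. Every week 6 and week 29 array lay below every control, and the week 15 arrays overlapped the controls. The mean differed from control by -0.71 ± 0.11 (SE of the log2 difference, 3 arrays a group) at week 6, -0.04 at week 15 and -1.09 at week 29, the last a 2.13-fold lower signal.

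Sox7 and Sox17 encode SOXF transcription factors of developing and adult vessels. Sox7 read 8.52, 8.28 and 8.51 in controls, 7.71, 7.48 and 7.80 at week 6, 8.72, 8.32 and 8.82 at week 15 and 7.13, 7.21 and 7.05 at week 29. As with Plvap, the week 6 and week 29 arrays lay below every control and the week 15 arrays did not, and 2 of the 3 exceeded the highest control. The differences from control were -0.77 ± 0.14 at week 6, 0.18 at week 15 and -1.31 at week 29.

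Sox17 read 8.09, 7.76 and 8.28 in controls, 7.57, 7.45 and 7.47 at week 6, 7.59, 7.26 and 7.60 at week 15 and 7.25, 7.38 and 7.26 at week 29. All 9 NMBA arrays lay below the lowest control. Its differences were -0.55 ± 0.13, -0.56 and -0.75 at weeks 6, 15 and 29. The difference of behaviour between the 2 SOXF genes at week 15 was not itself tested.

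**Figure D1:**
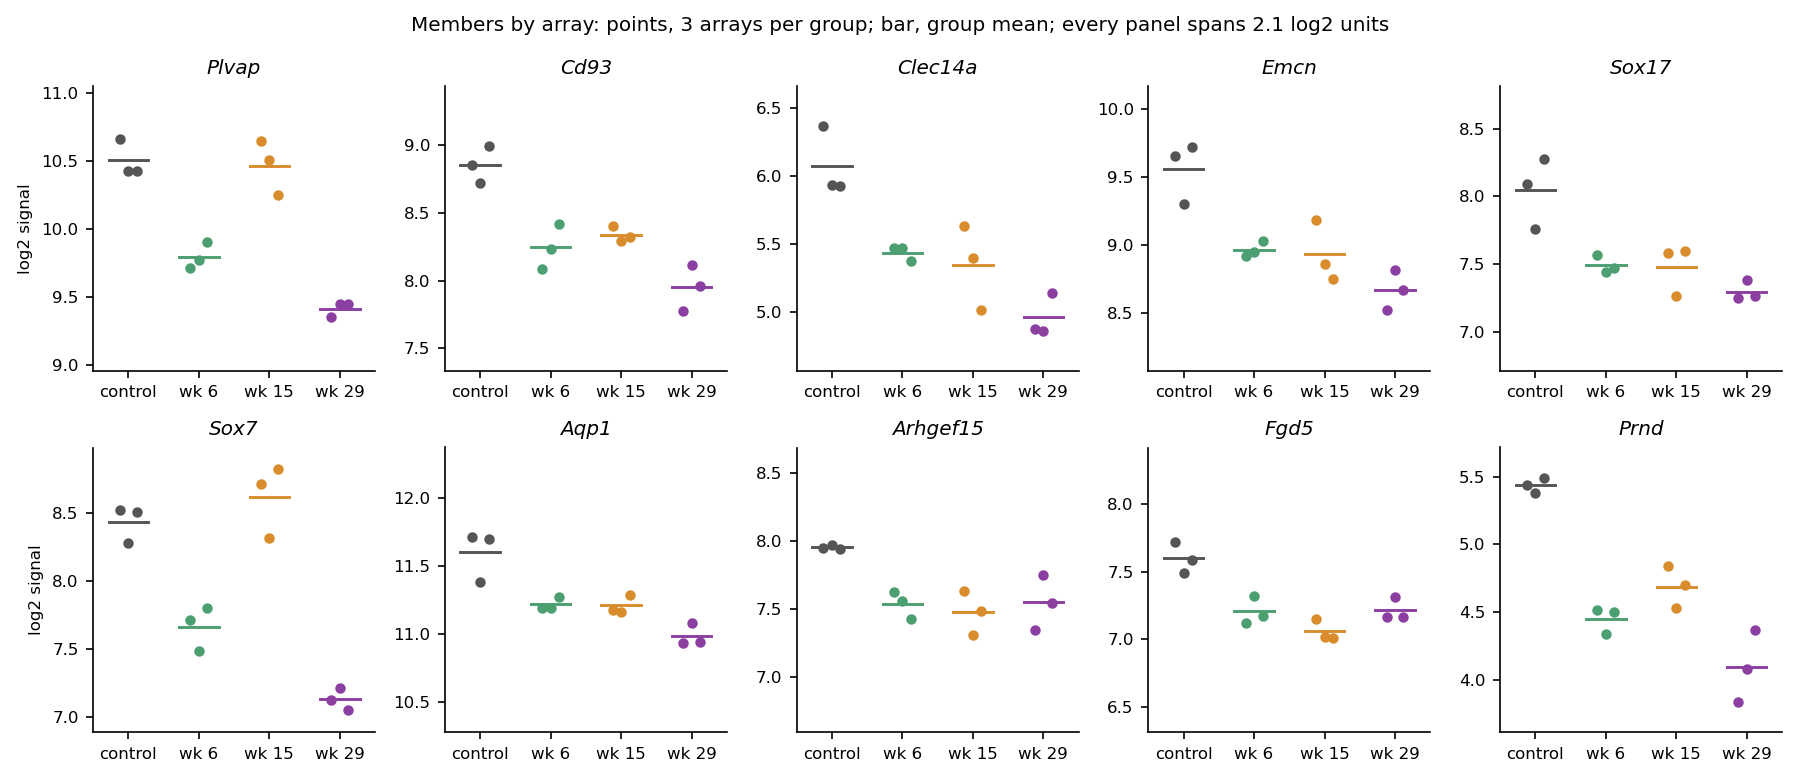
Log2 signal (vertical axes, each panel spanning 2.1 log2 units) of the 10 genes in control and NMBA week 6, 15 and 29 arrays (horizontal axes). Points are the 3 arrays of a group and bars their mean. Plvap and Sox7 sit at the control level at week 15, and the other 8 genes sit below every control in all 9 NMBA arrays.

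Cd93 and Clec14a encode C-type lectin-like receptors of the endothelial surface that bind multimerin 2. The Cd93 signal was 8.85, 8.72 and 8.99 in controls, 8.09, 8.23 and 8.42 at week 6, 8.41, 8.29 and 8.32 at week 15 and 7.78, 8.12 and 7.96 at week 29. Clec14a stood at 6.37, 5.93 and 5.93, then 5.47, 5.47 and 5.37, 5.63, 5.39 and 5.01 and 4.87, 4.86 and 5.14 in the same order of groups. For both genes every NMBA array lay below every control, and the week 29 mean was the lowest. Cd93 differed from control by -0.61 ± 0.12, -0.52 and -0.90 at weeks 6, 15 and 29. Clec14a differed by -0.64 ± 0.16, -0.73 and -1.12. Its week 29 arrays read only 4.86 to 5.14, and whether that signal was above background was not assessed.

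Emcn encodes endomucin, a sialomucin of capillary and venous endothelium, and Aqp1 encodes a water channel of capillary endothelium and red blood cells. Emcn read 9.65, 9.30 and 9.72 in controls, 8.92, 8.95 and 9.03 at week 6, 9.18, 8.86 and 8.75 at week 15 and 8.52, 8.81 and 8.67 at week 29. Aqp1 read 11.72, 11.39 and 11.70 in controls, 11.19, 11.19 and 11.27 at week 6, 11.18, 11.17 and 11.29 at week 15 and 10.93, 11.08 and 10.94 at week 29. Neither gene had an NMBA array within the control range, and the highest NMBA array of Emcn was the first of week 15. The differences of Emcn were -0.59 ± 0.14, -0.63 and -0.89 at weeks 6, 15 and 29. For Aqp1 they were -0.38 ± 0.10, -0.39 and -0.62.

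Arhgef15 and Fgd5 encode guanine nucleotide exchange factors of endothelial cells. Arhgef15 was 7.95, 7.97 and 7.94 in controls, 7.63, 7.56 and 7.42 at week 6, 7.63, 7.31 and 7.48 at week 15 and 7.35, 7.75 and 7.55 at week 29. Fgd5 was 7.72, 7.49 and 7.59 in controls, 7.12, 7.32 and 7.17 at week 6, 7.15, 7.02 and 7.01 at week 15 and 7.16, 7.32 and 7.16 at week 29. The 9 NMBA arrays lay below the controls for both, and the 3 NMBA weeks lay close together. The differences at weeks 6, 15 and 29 were -0.42 ± 0.12, -0.48 and -0.41 for Arhgef15. For Fgd5 they were -0.39 ± 0.09, -0.54 and -0.38.

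Prnd encodes doppel, a relative of the prion protein found in endothelium and testis. The signal was 5.44, 5.38 and 5.49 in controls, 4.52, 4.34 and 4.50 at week 6, 4.84, 4.53 and 4.70 at week 15 and 3.84, 4.08 and 4.37 at week 29. No NMBA array reached the controls, and the week 15 arrays all lay above those of week 6 and week 29. The differences were -0.98 ± 0.13, -0.75 and -1.34. Without detection calls, whether Prnd was above background at week 29 was not assessed, so no fold is given.

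**Figure D2:**
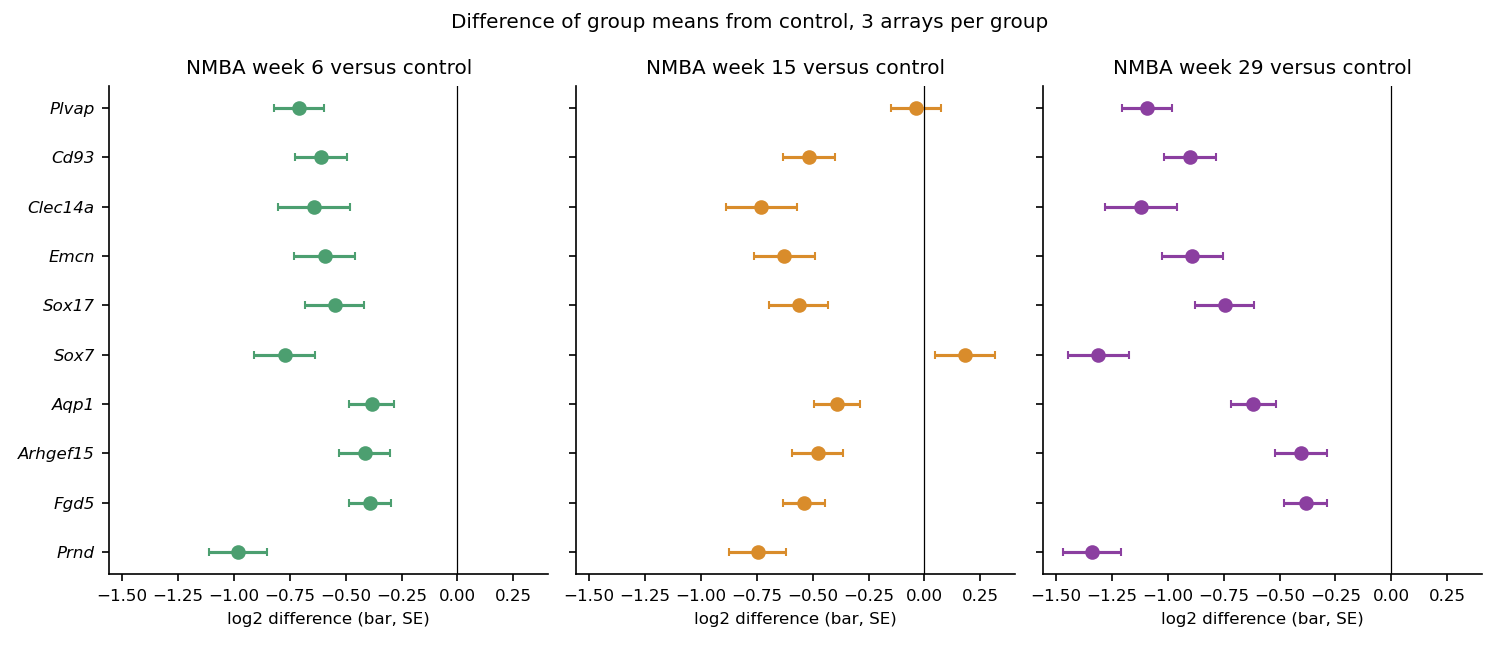
Difference of each gene's mean log2 signal from control (horizontal axis, log2 units) at NMBA weeks 6, 15 and 29, with 3 arrays per group. Points are differences and bars their SE. At week 15 Plvap (-0.04) and Sox7 (0.18) lie near 0 and the other 8 genes lie between -0.75 and -0.39.

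The 4 other probe sets of Cd93, Sox17 and Aqp1 were called at no week against control. The second Cd93 probe set read 5.69 to 5.74 in controls and 5.70 to 6.09 at week 29. The other 2 Sox17 probe sets read 4.82 to 5.38 and 3.85 to 4.11 in controls, and 4.86 to 5.32 and 3.90 to 3.96 at week 29. For the second Aqp1 probe set the controls spanned 9.85 to 10.28 and the week 29 arrays 9.56 to 9.85. That Aqp1 probe set differed from control by -0.10, -0.28 and -0.39 at weeks 6, 15 and 29, and its highest week 29 array lay just below its lowest control. The calls of Cd93, Sox17 and Aqp1 thus each come from 1 probe set. The other 7 genes had 1 probe set each.

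With limma, all 10 genes were called lower at week 6 at an adjusted p under 0.05, where 2.44% of all probe sets were called lower. At week 15, 8 of 10 were called lower against 6.21% of all, and at week 29, 10 of 10 against 7.44%. Their groups did not overlap with control in 10, 8 and 10 cases, compared with 17.2%, 13.1% and 15.7% of all probe sets lying wholly below control. Because the genes were chosen on these contrasts, the counts carry no weight of their own. The median difference of the 10 genes was -0.60 at week 6, -0.53 at week 15 and -0.90 at week 29, and that of all probe sets was -0.02, 0.06 and 0.04. In bulk tissue, fewer endothelial cells and less RNA per endothelial cell cannot be told apart.

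The week 6 calls did not hold without single arrays. Of the 10, 0 were called without control replicate 1 or 3 or without week 6 replicate 2 or 3, and 1 was called without week 6 replicate 1, with medians between -0.62 and -0.53 in those 5 fits. The same 5 fits called only 0.00322% to 0.184% of all probe sets at week 6, so the loss was not particular to these genes. At week 15 the count was 2 without control replicate 1, 3 without control replicate 3 or week 15 replicate 3, 5 without week 15 replicate 2, and 1 in a fit of the 6 arrays alone. Of all probe sets, 5.43%, 2.99%, 3.27%, 9.85% and 0.435% were called in those fits in turn. At week 29 the count ranged from 7 to 10 when any 1 array was left out, beside 0.883% to 19.7% of all probe sets.

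Several measures of tissue and RNA differed between the groups. At week 15 the GAPDH measure overlapped the controls, the epithelium score lay above every control and the skeletal muscle score below every control. Their part in the differences of the 10 genes was not tested beyond the covariate fits given here. GAPDH control probe sets at the 3′ end of its mRNA read brighter than those at the 5′ end, a gap that widens as RNA degrades. This log2 gap was 0.53, 0.22 and 0.45 in controls, 0.11, 0.15 and 0.07 at week 6, 0.60, 0.22 and 0.37 at week 15 and 0.13, 0.21 and 0.17 at week 29. With this value as a covariate 0, 8 and 4 of the 10 genes were called lower at weeks 6, 15 and 29, and the medians were -0.33, -0.53 and -0.72. That fit called 0.0258%, 8.41% and 0.425% of all probe sets at those weeks, in either direction. The skeletal muscle score spanned 13.13 to 13.40 in controls, 13.44 to 13.59 at week 6, 11.83 to 12.98 at week 15 and 13.50 to 13.77 at week 29. With it as a covariate 8, 0 and 8 genes were called, at medians of -0.62, -0.50 and -0.93, beside 6.55%, 0.00966% and 4.3% of all probe sets.

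The squamous epithelium score, over 8 keratin, junction and related genes, was 13.28, 13.03 and 13.01 in controls and 12.56, 12.31 and 12.51 at week 6. It was 13.34, 13.37 and 13.51 at week 15 and 12.80, 12.09 and 11.90 at week 29, so it lay above every control at week 15 and below every control at weeks 6 and 29. All 8 of its genes were higher at week 15 than at week 6 and lower at week 29 than at week 15, where 20.3% and 18.3% of all probe sets were called in those directions. The means of Sox7, Plvap, Cd93 and Prnd had the same order of the 3 NMBA weeks, and those of the other 6 genes did not. With that score as a covariate, chosen after seeing the data, 0, 2 and 0 of the 10 genes were called against control at weeks 6, 15 and 29. The medians were -0.69, -0.48 and -1.10. Of all probe sets, 0%, 1.69% and 0.00322% were called in that fit. The part of tissue make-up in the differences was not tested beyond these fits.

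Differences between the NMBA weeks ask whether the endothelial signal moved between these samplings. No control was matched to each week, so tumor stage and the age of the rats cannot be told apart. The choice of genes used the same NMBA arrays against control, so these tests are not wholly apart from it. Between weeks 6 and 15, Sox7 rose by 0.96 ± 0.14 on the log2 scale (limma, n = 3 per group, adjusted p = 0.00028), a 1.94-fold difference between the group means. Every week 15 array lay above every week 6 array. Plvap rose by 0.67 ± 0.11 (adjusted p = 0.000768), and its lowest week 15 array exceeded the highest week 6 array. The other 8 genes were not called and differed by -0.15 to 0.24. These 2 of 10 genes, both higher, stand beside 37.8% of all probe sets called in this comparison, 20.3% higher and 17.4% lower, so the count is not above the background.

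Between weeks 15 and 29, Sox7 fell by 1.49 ± 0.14 (adjusted p = 4.2e-05) and Plvap fell by 1.05 ± 0.11 (adjusted p = 6.78e-05), with every week 29 array below every week 15 array. Prnd fell by 0.59 ± 0.13 (adjusted p = 0.00362) and Cd93 by 0.39 ± 0.12 (adjusted p = 0.0211). Clec14a, at -0.39 (adjusted p = 0.0781), and Aqp1, at -0.23 (adjusted p = 0.1), did not pass. Arhgef15 and Fgd5 lay at 0.07 and 0.16. The 4 of 10 genes called, all lower, compare with 35.4% of all probe sets called, 17.1% higher and 18.3% lower.

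Plvap and Sox7 kept both calls between weeks when any 1 array was left out, in fits of the 6 arrays compared, and with the GAPDH gap in the model. With the muscle score, Sox7 was at 0.59 between weeks 6 and 15 (adjusted p = 0.0746) and Plvap at 0.88 (adjusted p = 0.0211). With the epithelium score, no gene was called, at 0.78 for Sox7 and 0.75 for Plvap between weeks 6 and 15, and 0 of the 31042 probe sets were called in that fit. Between weeks 15 and 29, Prnd was called whichever 1 array was left out, but not with the GAPDH value (-0.46, adjusted p = 0.0567) or the muscle score (-0.61, adjusted p = 0.191). Cd93 was not called without week 15 replicate 1 (adjusted p = 0.0653), week 29 replicate 1 (adjusted p = 0.0785) or week 29 replicate 3 (adjusted p = 0.0546). The Cd93 call was also lost with array weights (-0.33, adjusted p = 0.0709), the muscle score (-0.40, adjusted p = 0.332) and the GAPDH value (-0.28, adjusted p = 0.19). The mean over both Cd93 probe sets differed by -0.10 (adjusted p = 0.486).

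Between weeks 6 and 29, 8 of the 10 genes had a lower mean at week 29, led by Sox7 (-0.54 ± 0.14, adjusted p = 0.325) and Clec14a (-0.48 ± 0.16). Limma called 0 of the 10 genes and 0 of all 31042 probe sets (0%). At an unadjusted p under 0.05 there were 7 of the 10 genes and 3005 of all probe sets. With array weights, 1 of the 10 genes was called, beside 1.17% of all probe sets.

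**Figure D3:**
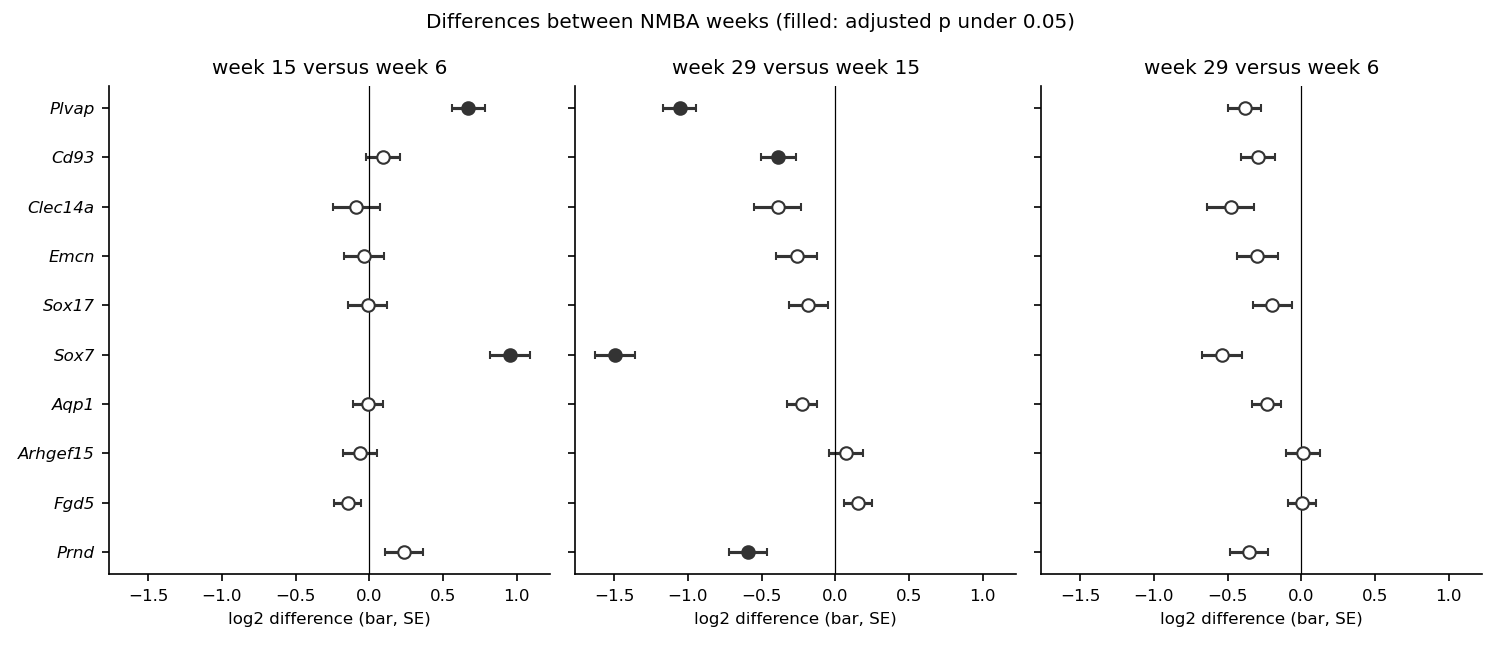
Differences of mean log2 signal between NMBA weeks (horizontal axis, log2 units) for the 10 genes, with 3 arrays per group. Bars are SE and filled points have an adjusted p under 0.05. Plvap and Sox7 are filled in the first 2 panels, Cd93 and Prnd in the second, and no gene in the third.

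Other genes of the endothelium, 75 listed by role and 70 of them measured, had means that were mostly lower than control too. At week 6, 5 of 70 fell and 2 rose, beside 2.44% and 5.11% of all probe sets. At week 15, 11 fell and 1 rose, beside 6.21% and 1.7%, and at week 29, 27 fell and 2 rose, beside 7.44% and 7.72%. The means of 61, 52 and 63 of the 70 lay below control at the 3 weeks, with medians of -0.30, -0.22 and -0.40. Without single arrays the number that fell ranged from 0 to 11 at week 6, 3 to 14 at week 15 and 5 to 31 at week 29, lowest there without control replicate 1 or week 29 replicate 3. At week 6 it was 0 without control replicate 1 or 3 or any 1 week 6 array. Each week 6 fall of these genes was lost in those fits, where at most 0.184% of all probe sets were called. At week 15 the number was 3 without week 15 replicate 3, 4 without control replicate 1 or 3 and 6 without control replicate 2. At week 29 it was also low without control replicate 3 (6) and week 29 replicate 2 (11).

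Among junction and adhesion genes 1, 2 and 5 of 8 fell at weeks 6, 15 and 29. Pecam1, the platelet and endothelial adhesion molecule that serves as a pan-endothelial marker, read 9.15, 9.05 and 9.04 in controls and 8.41, 8.66 and 8.82 at week 29. It differed by -0.37 at week 6 and -0.29 at week 15, and fell by 0.45 ± 0.14 at week 29 (adjusted p = 0.0499). Sele, the E-selectin of activated endothelium, read 4.82, 4.79 and 4.91 in controls, 3.96, 3.84 and 4.20 at week 6, 5.60, 4.89 and 4.58 at week 15 and 3.55, 3.62 and 3.62 at week 29. It fell by 0.84 ± 0.20 at week 6 (adjusted p = 0.0301) and by 1.24 ± 0.20 at week 29 (adjusted p = 0.00763), and was not called at week 15. As for Prnd, whether this dim signal was above background was not assessed. Cdh5, the endothelial cadherin, had no probe set with that symbol alone in the annotation used here.

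Of the receptors and ligands for vessel growth factors, angiopoietins and bone morphogenetic proteins, 0, 3 and 7 of 14 fell at weeks 6, 15 and 29. Kdr, the main VEGF receptor, fell at week 15 (-0.55 ± 0.15, adjusted p = 0.0394) and was at -0.45 and -0.46 at weeks 6 and 29. Ptprb, the vascular phosphatase that restrains Tek signaling, fell by 0.55 at week 15 (adjusted p = 0.0172) and 0.64 at week 29 (adjusted p = 0.0103). Transcription factor genes fell in 1, 1 and 4 of 11 cases. Sox18, the third SOXF gene, was not called at weeks 6, 15 or 29, at -0.32, -0.30 and -0.33. Hey1, a Notch target of arteries, fell by 0.55 at week 6 (adjusted p = 0.0248) and 0.60 at week 29 (adjusted p = 0.0117).

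Mmrn2, the multimerin 2 that Cd93 and Clec14a bind, read 8.45, 8.13 and 8.29 in controls, 7.96, 7.92 and 7.89 at week 6, 8.21, 7.98 and 7.68 at week 15 and 7.52, 7.79 and 7.78 at week 29. It fell at week 29 by 0.59 ± 0.13 (adjusted p = 0.0188) and was at -0.36 and -0.33 at weeks 6 and 15. Vwf, the clotting factor carrier stored in endothelium, was called at no week, at -0.25, -0.02 and -0.40. In that role list of matrix, clotting and vessel tone genes, 0, 0 and 2 of 12 fell. Esm1, endocan, rose by 0.68 ± 0.12 at week 6 (adjusted p = 0.0209), and Ece1, the endothelin converting enzyme, rose by 0.36 at week 15 (adjusted p = 0.0399).

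Of the other endothelial genes, Rasip1, a Rap1 effector needed for vessel lumens, fell by 0.40 at week 6 (adjusted p = 0.039), differed by -0.20 at week 15 and fell by 0.62 at week 29 (adjusted p = 0.00856). Exoc3l2 fell by 0.60 at week 6 (adjusted p = 0.0255) and 0.75 at week 29 (adjusted p = 0.00856) and was at 0.02 at week 15. Afap1l1, an actin filament associated protein, ran the other way. It rose by 0.83 at week 6 (adjusted p = 0.0471), fell by 1.50 at week 15 (adjusted p = 0.00548) and rose by 0.91 at week 29 (adjusted p = 0.0254), the order of the skeletal muscle score.

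In the caveolae and transport list 1, 2 and 4 of 8 genes fell. Ehd4, a membrane trafficking ATPase, fell by 0.38 at week 6 (adjusted p = 0.0274) and 0.78 at week 29 (adjusted p = 0.00232) and stood at 0.11 at week 15. Fabp4, a fatty acid carrier of capillary endothelium and fat, fell by 1.09 at week 15 (adjusted p = 0.0101). Its mean lay above control at weeks 6 and 29, by 0.63 and 0.55, and was not called there. G protein-coupled receptor genes fell in 0, 2 and 3 of 7 cases. Adgrf5 was among them at week 15 (-0.49, adjusted p = 0.0166), and Cysltr2, a leukotriene receptor, rose by 0.47 at week 29 (adjusted p = 0.0291). Cysltr2 read only 3.63 to 4.03 in controls and 4.22 to 4.48 at week 29, and whether it was above background was not assessed.

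**Figure D4:**
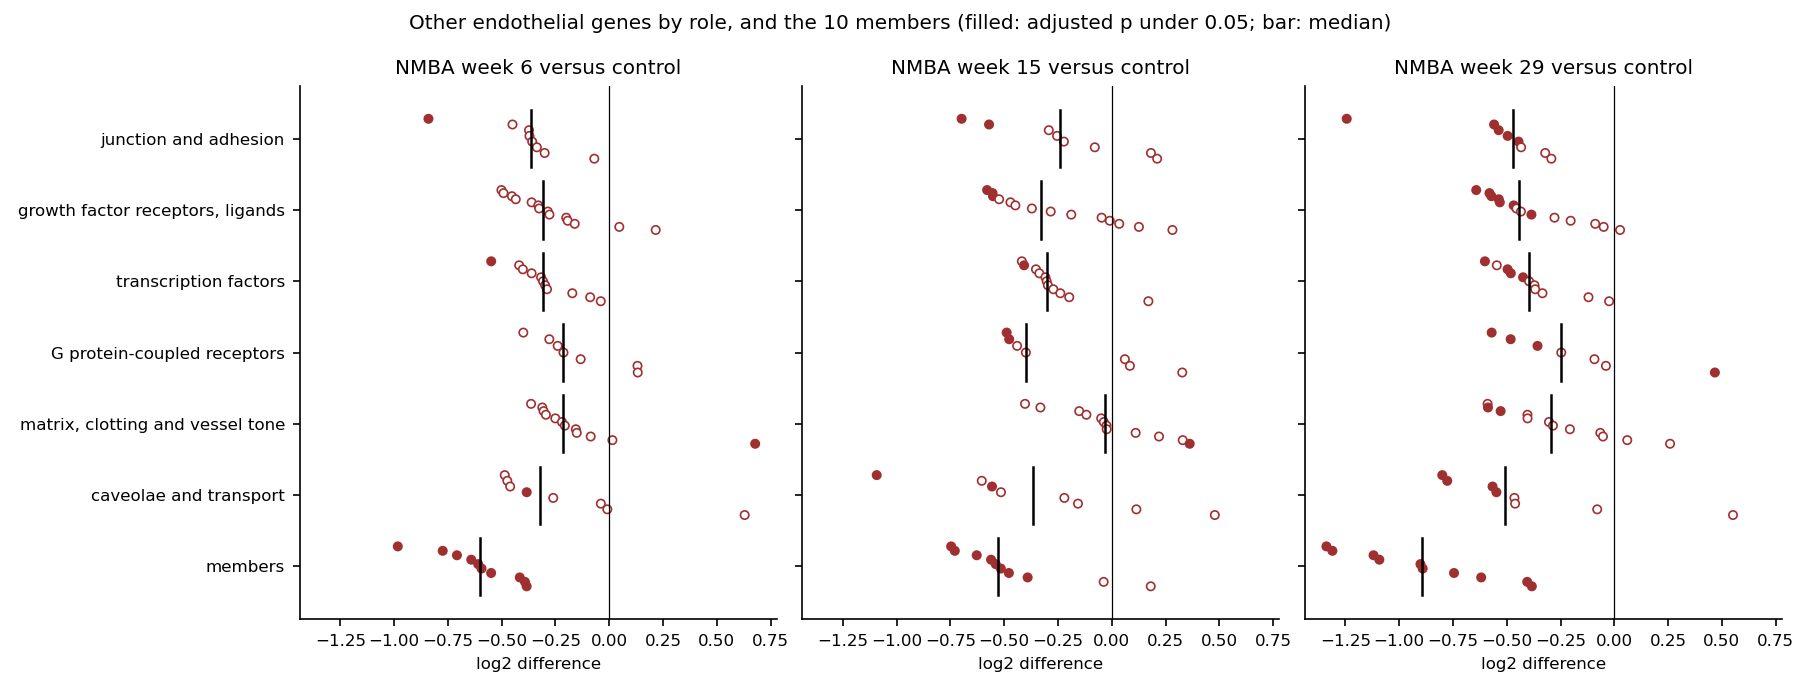
Difference from control (horizontal axis, log2 units) of other endothelial genes, in the role lists described here, and of the 10 genes described here (bottom row, "members"), at NMBA weeks 6, 15 and 29. Points are genes, filled where the adjusted p is under 0.05, and bars are list medians, which lie below 0 for every list drawn in all 3 panels.

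Markers of neighbouring cell types were measured in the same arrays. In the mural cell list, the pericytes and smooth muscle cells that wrap vessels, 0, 2 and 0 of 11 genes fell at weeks 6, 15 and 29 and 1 rose at week 29. Its score was 7.42 ± 0.20 in controls (SD, n = 3), 7.33 ± 0.18, 7.21 ± 0.08 and 7.37 ± 0.09 at the 3 weeks. In the lymphatic endothelium list 0, 3 and 0 of 7 genes fell and 1 rose at week 29. Lyve1, the lymphatic hyaluronan receptor, read 9.85, 9.40 and 9.25 in controls, 9.96, 9.91 and 9.49 at week 6, 9.07, 8.72 and 8.52 at week 15 and 9.74, 9.97 and 9.53 at week 29. It fell at week 15 by 0.73 ± 0.19 (adjusted p = 0.0382) and was not called at weeks 6 and 29.

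Red blood cell transcripts, a sign of blood held in the tissue, were listed as well. Hbb, a beta globin, read 9.55, 9.54 and 8.76 in controls, 10.69, 10.51 and 10.62 at week 6, 8.12, 8.07 and 8.32 at week 15 and 10.28, 10.57 and 10.63 at week 29. It rose by 1.32 ± 0.18 at week 6 (adjusted p = 0.015), fell by 1.12 at week 15 (adjusted p = 0.00767) and rose by 1.21 at week 29 (adjusted p = 0.00688). Hbb shares sequence with other beta globin genes, so its probe set may read several of them. Of the 4 measured genes of the list 1 rose at week 6, 1 fell at week 15 and 2 rose at week 29. The fall at week 15 was that of Hbb alone. Alas2, Slc4a1 and Ahsp had means of 5.92, 5.95 and 4.80 at week 15, beside 5.92, 5.78 and 4.79 in controls. At week 6 the mean of Ahsp was lower than control, at 4.64.

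Fibroblast genes fell in 0, 9 and 2 of 10 cases at weeks 6, 15 and 29, smooth muscle genes in 0, 3 and 4 of 8 with 1 higher at week 29, and leukocyte genes in 0, 0 and 1 of 9. Skeletal muscle genes were called lower in 0, 1 and 0 of 13 cases. All 13 of their means nevertheless lay below control at week 15, with a median difference of -0.72. At weeks 6 and 29, 12 of the 13 means lay above control. Of all probe sets, 2.44%, 6.21% and 7.44% were called lower at the 3 weeks. The part of these cell types in the endothelial values was not tested.

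**Figure D5:**
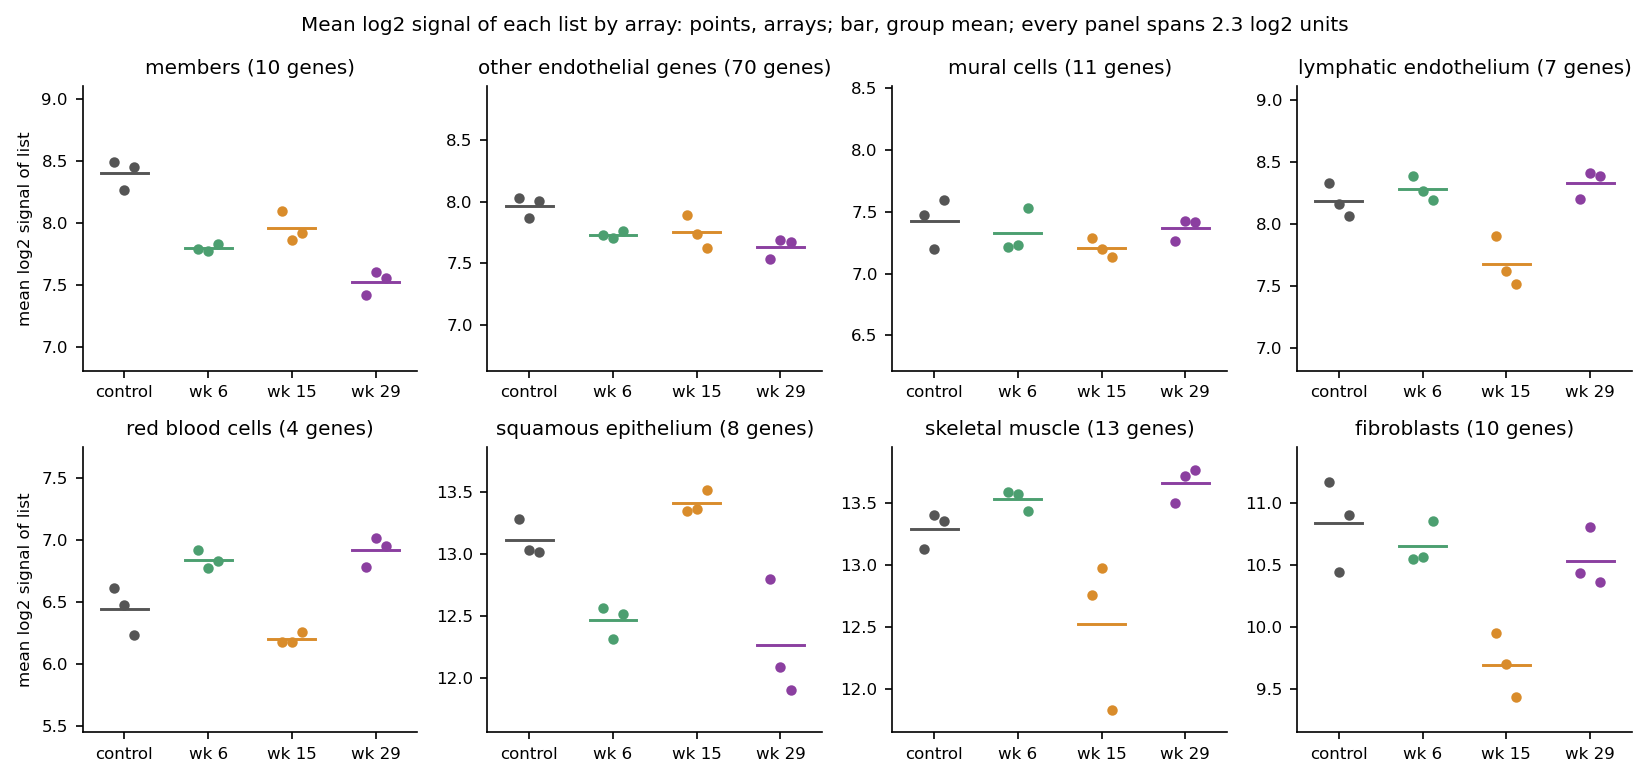
Mean log2 signal (vertical axes, each panel spanning 2.3 log2 units) of the 10 genes ("members"), of 70 other endothelial genes and of 6 marker lists by group. Points are arrays and bars group means. The mean of the 10 genes lies below every control in all 9 NMBA arrays, red blood cell scores are highest at weeks 6 and 29, and epithelium scores are highest at week 15.

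Across the 12 arrays, each gene's Pearson correlation with the mean of the other 9 ran from 0.66 for Fgd5 and 0.71 for Arhgef15 and Sox7 to 0.96 for Cd93 and Prnd. These values describe arrays that share 4 groups. Among 13970 other genes, those most like the mean signal of the 10 over the 12 arrays were Psmb9 (r = 0.974), Il6st (r = 0.972), Psmb8 (r = 0.964), Msn (r = 0.958) and Wipf1 (r = 0.941). Psmb9 and Psmb8 encode catalytic subunits of the immunoproteasome, Il6st the shared receptor subunit of the interleukin 6 family, Msn the membrane linker moesin, and Wipf1 a partner of the WASP actin regulators. Psmb9 read 8.85, 8.65 and 8.99 in controls, 7.93, 8.10 and 8.28 at week 6, 8.34, 8.21 and 8.14 at week 15 and 7.37, 7.80 and 7.71 at week 29. Il6st read 11.38, 11.20 and 11.26 in controls and 10.65, 10.72 and 10.72 at week 29. These genes were ranked by the likeness itself, so no test is given.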

How the data were processed

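Per the submitters' processing notes, the authors used Affymetrix Expression Console, and they deposited its log2 signals for each probe set and array, the scale being read from the values (2.49 to 14.71). The sources used here do not give the version or how signals were summarized. Detection calls were not used here, and precision is limited by the number of arrays. No dim filter was set, and 31042 probe sets were tested after 57 array controls had been dropped. Values were used as deposited. The two-sided test was limma 3.58.1 (R 4.3.3), whose lmFit and eBayes fitted 4 groups to 12 arrays with 8 residual degrees of freedom, with Benjamini-Hochberg adjustment over all 31042 probe sets and calls at an adjusted p under 0.05. The fit was tested on simulated data. A score is the mean log2 signal of a list in 1 array.

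The genes and lists were chosen with earlier results of these data known. Besides the 10 genes, the text names Pecam1, Cdh5, Kdr, Vwf, Mmrn2 and Sox18, up to 4 called endothelial genes per direction and comparison with control, and the 5 genes most like the mean of the 10. The count of 1 endothelial role list is not reported here. Hbb and Lyve1 are named as markers, chosen after their values were seen.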

Additional observations from a re-analysis of the deposited data

Results flagged for a closer look

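These genes are listed because their signal differed between 2 NMBA weeks, by limma's test of the difference between those weeks with 3 arrays per group. No control was matched to each week, so NMBA and the age of the rats cannot be told apart in these differences. For Plvap the week 15 minus week 6 difference was 0.67 (SE 0.11) and the week 29 minus week 15 difference -1.05. For Sox7 these were 0.96 and -1.49. Prnd (-0.59) and Cd93 (-0.39) differed between weeks 15 and 29. The Cd93 difference was -0.10 (adjusted p = 0.486) over both of its probe sets and lost its call with array weights and with the muscle, GAPDH or epithelium covariate, and that of Prnd lost its call with those 3 covariates.

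Among other endothelial genes, Sele (1.02 and -1.43), Exoc3l2 (0.62 and -0.78), Ehd4 (0.50 and -0.89) and Ece1 (0.51 and -0.30) were higher at week 15 than at weeks 6 and 29. Afap1l1 (-2.34 and 2.41), Fabp4 (-1.72 and 1.64) and Esm1 (-1.08 and 0.66) were lower at week 15 than at both. Rasip1 differed between weeks 15 and 29 (-0.42). The skeletal muscle score was lowest and the squamous epithelium score highest at week 15, and their part in these differences was not tested beyond the covariate fits.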

How the results depend on the processing

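Settings not named here kept each count within 1.5 times of the reported one, and no called direction reversed for a named gene. In the order of weeks 6, 15 and 29, the reported numbers called lower were 10, 8 and 10 of the 10 genes and 5, 11 and 27 of the 70 other endothelial genes. Fits of the 6 arrays alone gave 1 of the 10 genes at week 15, and 19 and 0 others at weeks 6 and 15. These fits called 14.1% and 0.435% of all probe sets at weeks 6 and 15. Array weights gave 34 others at week 6, where 22.3% of all probe sets were called (7.54% in the reported fit). They gave 1 of the 10 between weeks 6 and 29 (0 reported), beside 1.17% of all probe sets (0% reported). The mean over a gene's probe sets gave 5 of the 10 and 7 others at week 15, with medians of -0.41 and -0.70 at weeks 15 and 29, since probe sets that did not fall enter it. With the muscle score there were 0 of the 10 and 0 others at week 15, 17 others at week 29, and 1 and 2 of the 10 between weeks 6 and 15 and weeks 15 and 29 (2 and 4 reported). With the GAPDH value there were 0 of the 10 and 0 others at week 6 (median -0.33), 4 and 1 at week 29 (median -0.72), and 2 of the 10 between weeks 15 and 29. An adjusted p under 0.01 left 0 of the 10 and 0 others at week 6, 2 and 1 at week 15, and 4 others at week 29. With the epithelium score, an alternative chosen after seeing the data, there were 0 and 0 at week 6, 2 and 3 at week 15, 0 and 0 at week 29 (median -1.10), and 0 of the 10 between weeks 6 and 15 and between weeks 15 and 29. For covariates and weights the cause was not tested. Few of all probe sets were called where these counts were 0. The share was 0.00966% at week 15 with the muscle score and 0.0258% at week 6 with the GAPDH value. With the epithelium score it was 0% at week 6 and 0.00322% at week 29, and at an adjusted p under 0.01 it was 0.00322% at week 6. Leaving out 1 array gave 0 to 10, 2 to 8 and 7 to 10 of the 10 genes, with medians of -0.70 to -0.53, -0.59 to -0.47 and -0.99 to -0.82. It gave 0 to 11, 3 to 14 and 5 to 31 others, and 2 to 2, 3 to 5 and 0 to 0 of the 10 between weeks 6 and 15, 15 and 29, and 6 and 29. Against control, the share of all probe sets called then ran from 0.00322% to 11.1%, 2.84% to 9.85% and 0.883% to 19.7%. With the replicate number as a block, 8, 8 and 9 of the 10 genes and 6, 12 and 28 others were called, a fit in which samples share only a number: of 18 same-numbered pairs across groups, 8 deviated together at r over 0.1 (range -0.41 to 0.29). Prnd was not tested where a mean log2 signal of 5 or more was required.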
